A study of Mus musculus with 3 samples.

Results

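Amino acids cross membranes only through carriers, and 10 carrier genes of the plasma membrane were followed in activated mouse macrophages: Slc3a2, Slc7a1, Slc7a5, Slc7a6, Slc7a7, Slc7a8, Slc7a11, Slc1a5, Slc38a1 and Slc38a2. They were chosen by their GENCODE M21 symbols and all 10 were found among 55536 annotated genes in the gene tables. Several of these carriers work in pairs. Slc3a2 encodes the heavy chain 4F2hc (CD98), a glycoprotein that carries no substrate itself but is joined by a disulfide bond to a light chain of the Slc7 family, which it brings to the cell surface. Macrophages depend on such carriers for cystine, the precursor of glutathione, for arginine, the substrate of nitric oxide synthase and arginase, and for glutamine and leucine, which feed the citric acid cycle and the growth kinase mTORC1.

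Macrophages grown from the bone marrow of C57BL/6J mice were fractionated, and total RNA of the cytosol was sequenced after removal of ribosomal RNA. The labels give 1 group of 3 libraries, biological replicates 1, 2 and 3, in which the cells had been exposed to lipid A at 100 ng/ml for 120 min. Lipid A is the part of bacterial lipopolysaccharide that TLR4 recognises. Sex and age were not collected, all libraries carry the same donor identifier, and separate animals are not stated. Each SD and p therefore measures how far these samples lie apart, which may be technical spread alone. There were no untreated cells, so no response to lipid A can be measured, and levels, ratios within libraries and differences between replicates are described. Replicates 1 to 3 held 31152786, 114031592 and 59693298 expected counts over all genes, and at these depths a count of 0 allows at most 0.0963, 0.0263 and 0.0503 CPM (counts scaled to the library total), for counting error only. All 8 macrophage markers were detected, with a lowest mean of 14.5 TPM for Mertk, while none of the 30 markers of T, B, NK, mast, erythroid, dendritic, neutrophil, stromal and endothelial cells was. The summed level of those 30 was 2.84, 2.18 and 3.66 TPM, and 7 of them, including Cd3d, Ly6g and Hbb-bs, were at 0. Replicate 2 stood apart in nuclear RNA, with Malat1 at 178 TPM against 741 and 812 TPM in replicates 1 and 3. It also stood apart in mitochondrially encoded RNA, at 0.376% of TPM against 1.80% and 1.41%. The abundant RNAs Rn7s1 and Rn7s2 were highest there, at 333197 and 336331 TPM. They were at 282476 and 286129 TPM in replicate 1 and at 285011 and 288339 TPM in replicate 3.

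Heavy chain mRNA exceeded the summed mRNA of its 5 partners. Slc7a8, Slc7a7 and Slc7a11 made up nearly all of the light chain mRNA. Among the 10 carriers, Slc38a1 and Slc38a2 lay far above Slc1a5. Levels are in TPM, a transcript abundance corrected for length and library total, so they can be compared between genes. Calling a gene detected at 1 TPM or more in every library, 8 of the 10 carriers were detected, whereas 37.6% of all 22015 nuclear-encoded protein-coding genes were. From high to low the means ran from Slc3a2 through Slc38a1, Slc7a8, Slc38a2, Slc7a7, Slc7a11, Slc7a1, Slc1a5 and Slc7a6 to Slc7a5. The median of the 10 means was 9.96 TPM, and that of the 8 detected carriers was 12.5 TPM beside 6.84 TPM for all detected nuclear-encoded protein-coding genes.

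**Figure D1:**
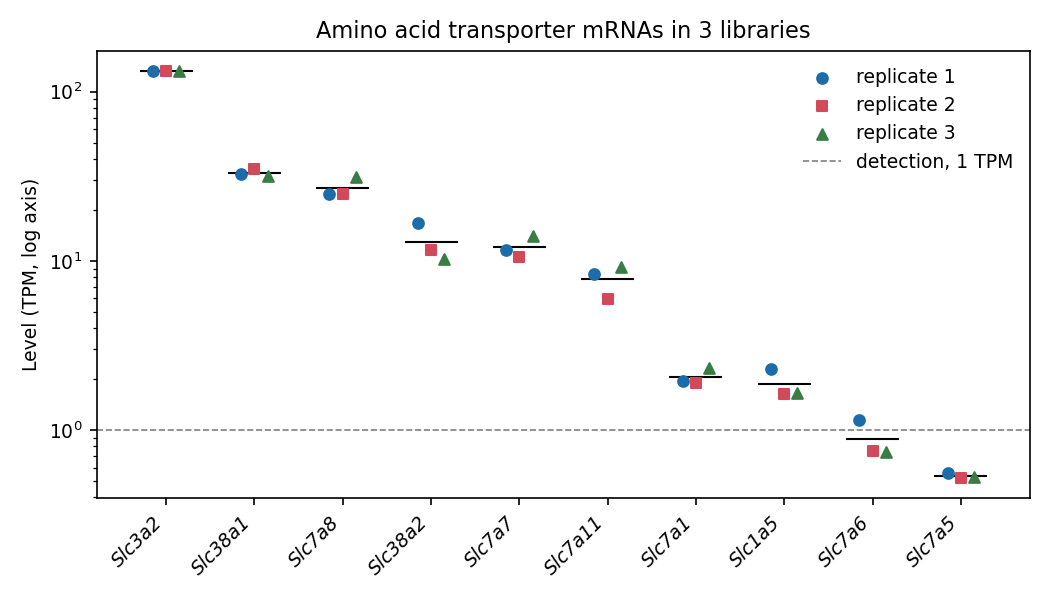
TPM on a log axis for each of the 10 carriers in replicates 1, 2 and 3 (points), with the mean as a bar and a dashed line at 1 TPM. Slc3a2 stands alone near 132 TPM, and only Slc7a6 and Slc7a5 fall below the line in any library.

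Slc3a2, on the minus strand of chromosome 19 (8706882 to 8723369, mm10), was at 131.62, 132.26 and 131.80 TPM in replicates 1 to 3. The libraries were almost equal on this scale, with a mean of 132 ± 0.330 TPM (SD, n = 3) on 11186, 46842 and 22727 counts. That mean lay above 96.9% of the detected nuclear-encoded protein-coding genes. The near-equality did not hold on the other scales. When TPM was rescaled to nuclear-encoded protein-coding genes the values were 560, 627 and 598, a highest-to-lowest ratio of 1.12, and in the second deposited quantification they were 54.5, 54.5 and 37.0 TPM, a ratio of 1.47. Slc3a1, the only other heavy chain, which pairs with Slc7a9 in kidney and gut, was at 0.02, 0.01 and 0 TPM.

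The Slc3a2 mRNA was divided among transcripts that start at different exons. Slc3a2-201, with 1578 coding bases before the stop codon, held 62.6% ± 2.02 of the gene's TPM (SD, n = 3). Slc3a2-207 held 30.4% ± 1.54 and Slc3a2-202 held 6.48% ± 0.564 (SD, n = 3 each). The order was the same in all 3 libraries, and the second deposited quantification gave 69.6%, 21.2% and 5.78% for the 3 transcripts. These transcripts share most exons, so the split is a model estimate from the reads that differ.

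The coding starts that separate these transcripts are printed below from the GENCODE M21 transcript sequences, since the division of the heavy chain mRNA turns on them. Capitals mark the annotated start codon. Slc3a2-202 begins 9490 bases upstream of Slc3a2-201 and opens with 117 coding bases, 39 codons, that precede the whole Slc3a2-201 reading frame in the same frame. Slc3a2-207 lacks the first 223 codons of Slc3a2-201 and follows the same frame from there to the same stop.
Slc3a2-202: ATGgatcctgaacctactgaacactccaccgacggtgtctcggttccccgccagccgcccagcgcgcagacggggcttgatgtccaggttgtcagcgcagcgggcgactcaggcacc
Slc3a2-201: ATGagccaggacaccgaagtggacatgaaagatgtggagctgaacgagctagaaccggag
Slc3a2-207: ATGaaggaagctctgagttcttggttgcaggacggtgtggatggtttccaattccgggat
The start codons lie at 8723093 to 8723095, 8713745 to 8713747 and 8711837 to 8711839 on chromosome 19. Whether a protein is made from Slc3a2-207 was not measured.

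**Figure D2:**
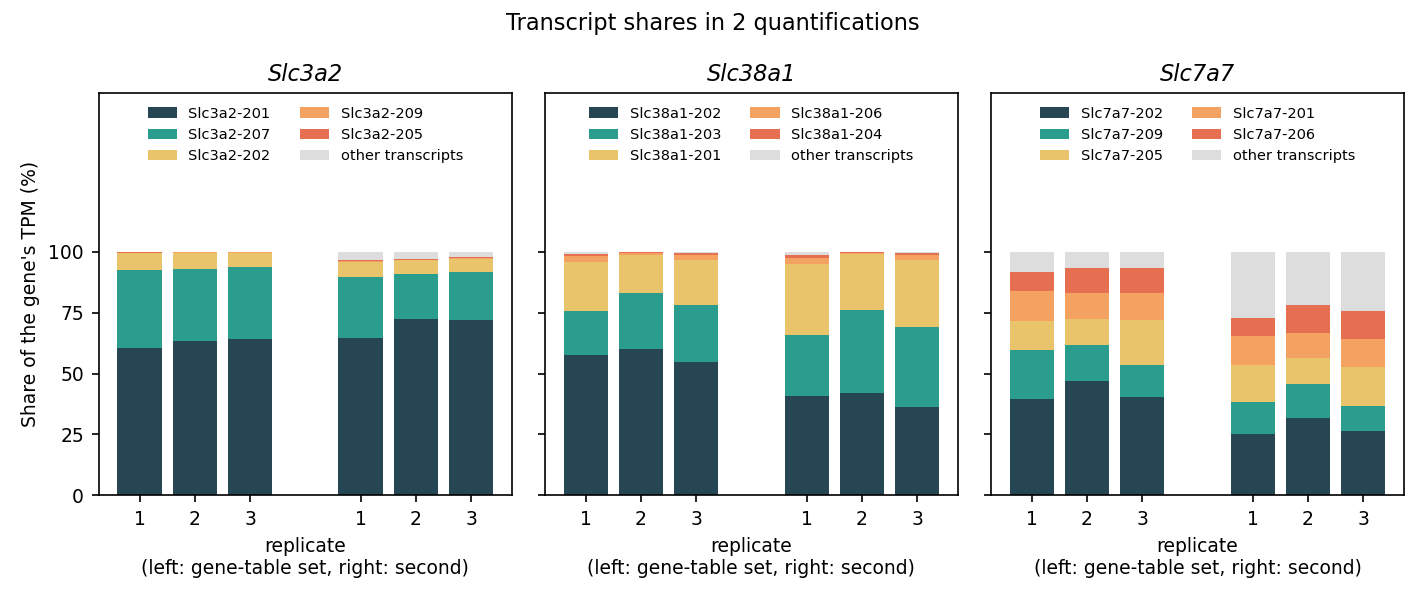
Share of each gene's TPM (%) held by its transcripts, for Slc3a2, Slc38a1 and Slc7a7, in replicates 1, 2 and 3. The left bars are from the transcript tables that match the gene tables and the right bars from the second quantification, and Slc3a2-201 is the largest part of every Slc3a2 bar while the Slc38a1 and Slc7a7 splits differ more between the quantifications.

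Among the light chains, Slc7a8 led. It encodes LAT2, an exchanger of neutral amino acids, lies on chromosome 14 (54722209 to 54781946) and was at 24.95, 24.93 and 31.37 TPM. Replicates 1 and 2 were nearly equal and replicate 3 was higher, for a mean of 27.1 ± 3.71 TPM (SD, n = 3). In the second quantification replicate 3 was instead the lowest, at 9.02 TPM against 10.2 and 10.4. Nearly all of it, 98.6% ± 0.192 (SD, n = 3), was the single coding transcript Slc7a8-201.

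Slc7a5, which encodes LAT1, the leucine exchanger that supplies mTORC1 in dividing cells, was the lowest of all 10 carriers on deposited TPM, though not on the authors' posterior mean TPM. The gene, on chromosome 8 (121881150 to 121907694), was at 0.56, 0.52 and 0.53 TPM, a mean of 0.537 ± 0.0208 TPM (SD, n = 3), on 103, 398 and 199 counts. Slc7a8 thus exceeded Slc7a5 by 44.6-, 47.9- and 59.2-fold in replicates 1 to 3. The size of this gap depends on the estimate. The authors' credibility intervals for Slc7a5 reached 7.05, 1.74 and 3.89 TPM, and their posterior mean TPM was 2.75, 0.94 and 1.68, so neither its place below 1 TPM nor its place as the lowest carrier is firm. On the posterior means it exceeded Slc7a6, at 1.65, 0.87 and 0.98 TPM, in 3 of 3 libraries. On the posterior means Slc7a8, at 24.54, 24.80 and 31.10 TPM, still lay above Slc7a5 in every library. The gene Gm20388 spans Slc7a5 on the opposite strand, but their exons share 0 bases.

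Slc7a7, which encodes y+LAT1, was the second light chain. This carrier exports arginine and lysine in exchange for neutral amino acids and sodium, and its loss in humans causes lysinuric protein intolerance. Slc7a7, on chromosome 14 (54369442 to 54417780), was at 11.62, 10.60 and 14.04 TPM, a mean of 12.1 ± 1.77 (SD, n = 3). The 4 transcripts with the full coding sequence of 1530 bases have starts up to 8239 bases apart. They held 79.2% ± 3.93 of the gene's TPM (SD, n = 3), led by Slc7a7-202 at 42.3% ± 3.98. Slc7a7-205, a processed transcript without a coding sequence, held 13.7% ± 4.22 (SD, n = 3). In the second quantification Slc7a7-202 still led, with 27.8%. Exons of Slc7a7 share 232 bases with exons of Oxa1l on the other strand, and because the strand setting is not given in the sources used here, reads from these bases cannot be assigned with certainty.

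Slc7a6 encodes y+LAT2, which has the same kind of exchange activity as y+LAT1 in most tissues. On chromosome 8 (106168857 to 106198706), it was at 1.15, 0.75 and 0.74 TPM, with a mean of 0.880 ± 0.234 (SD, n = 3) on 168, 576 and 278 counts. On TPM replicate 1 was high and the other libraries were alike, but in TMM-scaled CPM the values were 5.28, 5.21 and 4.66. In replicate 1 transcripts with a retained intron held 26.96% of its TPM, against 5.26% and 4.05% in replicates 2 and 3. Most of the replicate 1 share was Slc7a6-206, a transcript of 359 bases given 0.29 TPM on 2.14 expected counts. That share and the high TPM of replicate 1 thus rest on very few reads. The protein-coding transcripts of Slc7a6 alone were at 0.78, 0.72 and 0.67 TPM. Slc7a7 exceeded Slc7a6 by 10.1-, 14.1- and 19.0-fold.

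Slc7a11 encodes xCT, which takes up cystine in exchange for glutamate. The gene, on chromosome 3 (49892526 to 50443614), was at 8.33, 5.97 and 9.18 TPM, a mean of 7.83 ± 1.66 (SD, n = 3). Replicate 2 was the lowest, also after rescaling to nuclear-encoded protein-coding genes, at 35.5, 28.3 and 41.7, and in TMM-scaled CPM, at 129, 111 and 155. The fully spliced transcript Slc7a11-201 alone showed the same order, at 8.01, 5.94 and 8.99 TPM, beside 0.32, 0.03 and 0.19 TPM for its retained-intron transcripts. Gclm, the regulatory subunit of the enzyme that makes the first bond of glutathione, was at 6.64, 4.85 and 8.02 TPM, and Gclc, the catalytic subunit, at 2.01, 1.59 and 1.73 TPM.

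The bases before the Slc7a11 start site are shown because Slc7a11 is a textbook target of ATF4, the factor induced when amino acids run short, and the matching DNA element can be read there. The element searched was TGATGNAA on both strands, in RefSeq windows of the GRCm38.p6 build that run from 250 bases before to 50 after a start site. Capitals mark the matches in the 150 bases at chr3:50443614-50443763, minus strand.
Slc7a11 upstream: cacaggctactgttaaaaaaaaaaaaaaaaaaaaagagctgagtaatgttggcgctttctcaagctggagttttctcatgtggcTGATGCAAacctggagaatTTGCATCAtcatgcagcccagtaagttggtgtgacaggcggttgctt
The matches begin at -66 and -47 and face each other. Of 32817 such windows genome-wide 3.97% held at least 1 match and 0.0701% more than 1. The 7 carriers in the table had 13 windows, and 3 of these held the element, for Slc7a11 and Slc7a7. The 2 Slc7a7 windows with it overlap and share 1 match, and the window from 54417895 to 54418194 held another at -141. More than 1 match in a window was thus not particular to Slc7a11. Slc3a2, Slc7a1, Slc7a6, Slc7a8 and Slc38a2 did not hold the element. The antioxidant element TGACNNNGC, bound by NRF2, was found in 4 of the 13 windows and in 12.4% of all windows. Those 4 were of Slc7a1, Slc38a2 and Slc7a6, whose 2 windows with it overlap and share 1 match. A match describes letters in a window and is not evidence of binding. Slc7a5, Slc1a5 and Slc38a1 are not in the table. The mRNAs of both factors were present: Atf4 was at 31.31, 18.59 and 21.27 TPM and Nfe2l2, which encodes NRF2, at 102.84, 71.10 and 68.31 TPM.

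Put together per library, the 5 light chains summed to 46.6, 42.8 and 55.9 TPM. Slc3a2, all transcripts counted, therefore exceeded the sum of its partners by 2.82-, 3.09- and 2.36-fold, a mean of 2.76 ± 0.371 (SD, n = 3). That count includes Slc3a2-207, which lacks the first 223 codons of Slc3a2-201, so for the longer coding transcripts the ratio is smaller. Slc3a2-201 alone, at 79.39, 84.01 and 84.41 TPM, still lay above the light chain sum in every library. The light chain mRNA was 56.0% ± 2.38 Slc7a8, 24.9% ± 0.176 Slc7a7, 16.1% ± 1.98 Slc7a11, 1.85% ± 0.577 Slc7a6 and 1.12% ± 0.150 Slc7a5 (SD, n = 3 each). The order of Slc7a8, Slc7a7 and Slc7a11 was the same in every library. On the authors' posterior mean TPM the Slc7a5 share was 3.56% ± 1.78, above the Slc7a6 share of 2.35% ± 0.867 (SD, n = 3 each). The Slc7a7 share was 24.9%, 24.8% and 25.1% in replicates 1 to 3, while the Slc7a11 share was 17.9%, 13.96% and 16.4%, lowest in replicate 2. All transcripts of a gene count in these shares. Processed transcripts without a coding sequence held 11.9%, 10.7% and 20.6% of Slc7a7 TPM, so its even share does not carry over to its coding mRNA. In the second quantification the Slc7a7 share was 28.9% ± 1.60 (SD, n = 3). mRNA ratios do not give the ratio of the proteins.

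**Figure D3:**
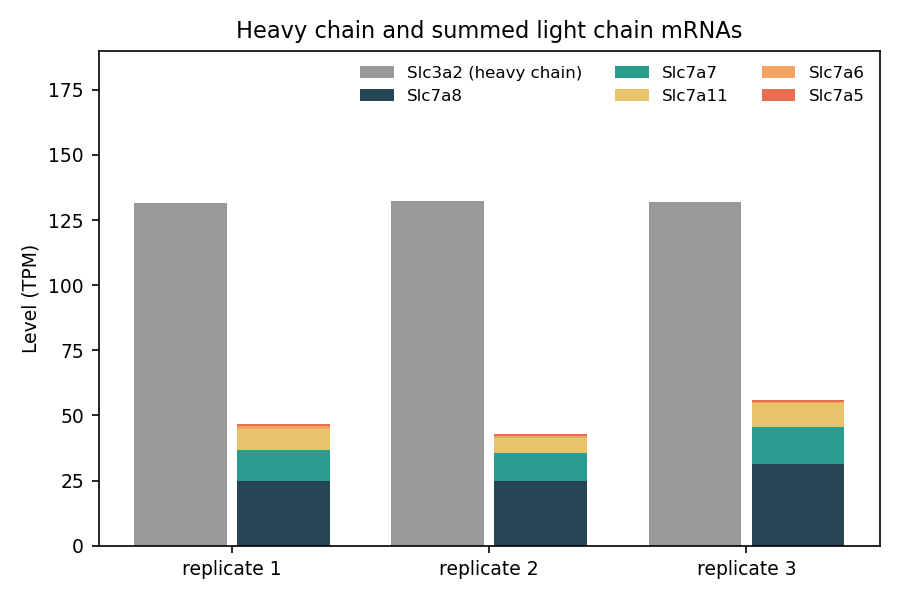
TPM of Slc3a2 (grey bars) beside the stacked TPM of its 5 light chain partners in replicates 1, 2 and 3. Slc3a2, with all its transcripts counted, is 2.36 to 3.09 times the stack, and Slc7a8 is the largest segment in each library.

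Arginine import that needs no heavy chain rests on the cationic carriers. Slc7a1 encodes CAT-1, the housekeeping importer of arginine, lysine and ornithine, on chromosome 5 (148327410 to 148399904). It was at 1.96, 1.91 and 2.32 TPM, a mean of 2.06 ± 0.224 (SD, n = 3). Slc7a2, the inducible CAT-2 known from activated macrophages, was at 3.93, 3.15 and 6.54 TPM and so above Slc7a1 in 3 of 3 libraries. Slc7a4 was at 0.92, 0.39 and 0.26 TPM, and Slc7a3 and Slc7a14 had at most 3 counts in any library.

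The sodium-coupled carriers of glutamine and other small neutral amino acids showed Slc38a1 above Slc38a2 and both far above Slc1a5. Slc38a1, which encodes SNAT1, lies on chromosome 15 (96571418 to 96642913) and was at 32.46, 34.91 and 31.65 TPM, a mean of 33.0 ± 1.70 (SD, n = 3). Its neighbour Slc38a2 (96687392 to 96699730), which encodes SNAT2, the member known to be induced when amino acids are withdrawn, was at 16.74, 11.55 and 10.31 TPM, a mean of 12.9 ± 3.41. Replicate 1 was the high library for Slc38a2 on deposited TPM, rescaled TPM, the second quantification and TMM-scaled counts, and the ratio of Slc38a1 to Slc38a2 was 1.94, 3.02 and 3.07. Slc1a5, which encodes the glutamine exchanger ASCT2, lies on chromosome 7 (16781340 to 16798274) and was at 2.30, 1.63 and 1.66 TPM, a mean of 1.86 ± 0.378 (SD, n = 3) on 307, 958 and 480 counts. In the second quantification Slc7a1 and Slc1a5 averaged 0.776 and 0.720 TPM, so their detection depends on the quantification.

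The main Slc38a1 transcripts share their coding sequence and differ at their ends. The 3 transcripts with the same coding sequence of 1455 bases held 96.98% ± 1.51 of its TPM (SD, n = 3). Slc38a1-202 held 57.4% ± 2.58, Slc38a1-203 held 21.7% ± 3.02 and Slc38a1-201 held 17.9% ± 2.33. Slc38a1-203 ends 4569 bases earlier than the others. In the second quantification the shares were 39.8%, 30.6% and 26.5%, closer to each other but in the same order. For Slc38a2, Slc7a1 and Slc1a5 a single transcript held 99.3%, 98.2% and 88.7% of TPM.

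Neighbours in the order of level were compared within libraries on the log2(TPM + 1) scale, which understates differences between low genes. Of 9 neighbouring pairs, 7 kept the same order in 3 of 3 libraries on deposited TPM. One of these, Slc7a6 above Slc7a5, turned on the authors' posterior mean TPM, from 0.28 ± 0.16 to -0.33 ± 0.24 (SD, n = 3). In the second quantification the difference was 0.22 ± 0.12, with Slc7a6 higher in 3 of 3 libraries. The order of this pair thus depends on the estimate and is not firm. Slc38a2 exceeded Slc7a7 by 0.06 ± 0.45 and Slc7a1 exceeded Slc1a5 by 0.10 ± 0.24, each in 2 of 3 libraries with overlapping values (SD, n = 3; exact two-sided sign-flip permutation p = 0.75 each), so neither pair can be ordered on deposited TPM. Slc38a1 and Slc7a8 differed by 0.28 ± 0.24, and in replicate 3 they were nearly equal, at 31.65 and 31.37 TPM. For the other pairs that kept their order on deposited TPM, the differences ran from 0.28 for Slc7a6 and Slc7a5 to 1.97 for Slc3a2 and Slc38a1. With 3 libraries this exact permutation test cannot go below p = 0.25, so no pair could pass it.

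Replicate spread beyond counting error was found for most carriers, at a share near that of genes at large. In a Poisson dispersion test on rounded expected counts with TMM-scaled library sizes and Benjamini-Hochberg adjustment, 7 of 10 carriers passed at an adjusted p of 0.05, while 62.1% of 14037 genes tested did, and 73.4% of those with at least the mean count of the lowest carrier. The 7 were Slc3a2, Slc7a1, Slc7a7, Slc7a8, Slc7a11, Slc38a1 and Slc38a2, with the smallest adjusted p from these edgeR-scaled counts for Slc38a1 (4.91e-170) and the largest for Slc7a1 (1.29e-05). Without replicate 2 Slc38a1 did not pass and Slc1a5 did. Slc7a5, Slc7a6 and Slc1a5, the carriers with the fewest counts, did not pass (adjusted p from edgeR-scaled counts 0.573, 0.328 and 0.0711), which does not show that they did not vary. The edgeR biological coefficient of variation ran from 0.114 for Slc3a2 and Slc7a7 to 0.195 for Slc7a5, with a median of 0.132 beside 0.151 over all genes tested. By TPM the highest library exceeded the lowest by more than 1.5 times for Slc38a2 at 1.62, Slc7a6 at 1.55 and Slc7a11 at 1.54. That is 2 of the 8 detected carriers, where 10.6% of detected nuclear-encoded protein-coding genes passed the same limit. Which carriers passed depended on the scale. After rescaling to nuclear-encoded protein-coding genes only Slc38a2 did, at 1.52, with Slc7a6 at 1.46 and Slc7a11 at 1.47. In the second quantification Slc7a11 was at 1.27. There Slc7a6, Slc38a2, Slc1a5, Slc7a5 and Slc38a1 passed, at 2.40, 2.33, 2.13, 1.73 and 1.61.

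Which library was lowest depended on the scale for most carriers. On deposited TPM replicate 2 was the lowest for 6 of 10, and after rescaling to nuclear-encoded protein-coding genes for 1 of 10, Slc7a11, while replicate 1 became the lowest for 6. Nuclear-encoded protein-coding genes took 23.5%, 21.1% and 22.0% of TPM in replicates 1 to 3. Retained-intron transcripts of the carriers, 18 transcripts of 9 genes, took 1.29%, 0.538% and 1.00% of the carriers' TPM. Their sum was lowest in replicate 2, as Malat1 was, but taken gene by gene this held for 6 of the 9. For Slc1a5 and Slc7a6 replicate 3 was the lowest, and for Slc7a5 they were at 0 TPM throughout. The part of nuclear RNA in the spread of the carriers was not tested. Slc38a2 was highest in replicate 1, Slc7a8 in replicate 3 and Slc38a1 in replicate 2 on both of these scales, though not Slc7a8 in the second quantification.

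**Figure D4:**
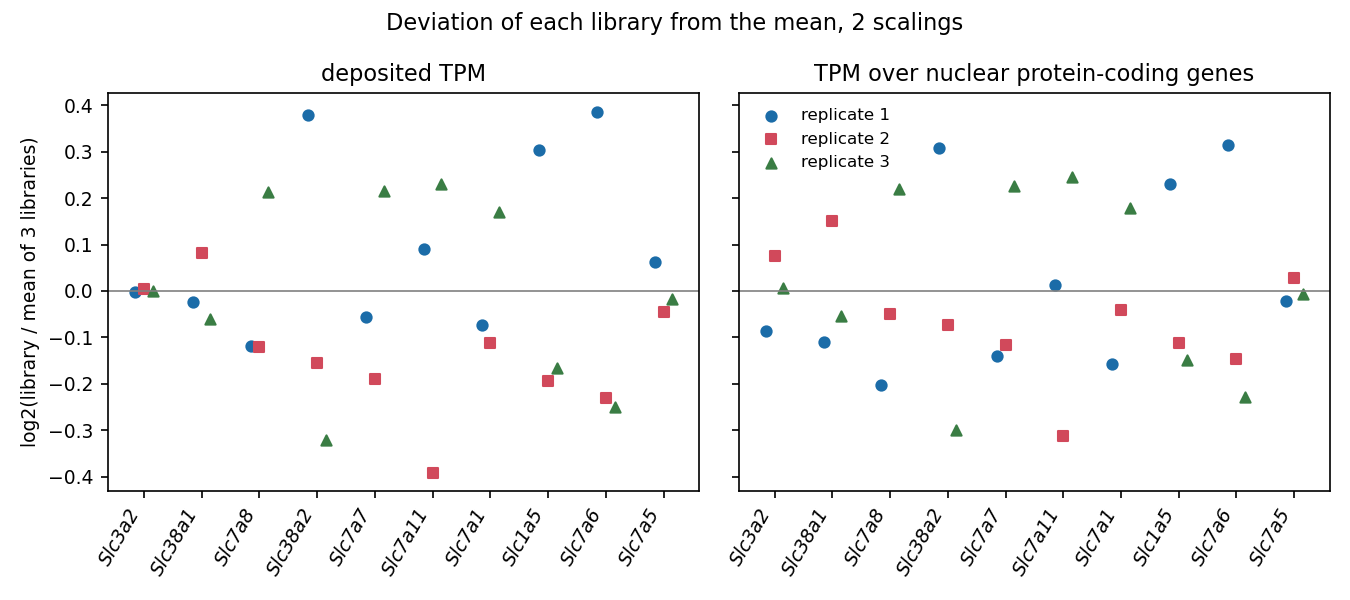
Deviation of each library from the mean of the 3 libraries as a log2 ratio, for each carrier, on deposited TPM (left) and on TPM rescaled to nuclear-encoded protein-coding genes (right). Replicate 2 (squares) is the lowest point for 6 carriers on the left and for Slc7a11 alone on the right.

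Beyond the 10 carriers, 57 other transporter genes were listed by family and site. Of these 21 (36.8%) were detected, close to the 37.6% of all nuclear-encoded protein-coding genes, and 15 were at 0 TPM in every library. The highest were lysosomal Slc15a3, a carrier of histidine and peptides, at 148 ± 8.71 TPM and the taurine carrier Slc6a6 at 146 ± 9.25 TPM, both above Slc3a2 in every library (SD, n = 3 each). Slc43a2, a uniporter of leucine and other large neutral amino acids that needs no heavy chain, was at 80.3 ± 3.44 TPM, above the sum of all 5 light chains in 3 of 3 libraries. The aromatic amino acid carrier Slc16a10 was at 14.8 ± 2.75 TPM (SD, n = 3 each), and the uniporter Slc43a1 averaged 0.0067 TPM.

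Single families leaned on few members. In the Slc38 family 6 of 11 were detected, among them Slc38a10 at 14.7 ± 0.960 TPM, lysosomal Slc38a7 at 11.8 ± 0.424 TPM and Slc38a6, and Slc38a3, Slc38a5, Slc38a8 and Slc38a11 had 0 counts. In the Slc1 family Slc1a5 alone of 7 was detected, and the next highest, the glutamate carriers Slc1a2 and Slc1a3 and the neutral carrier Slc1a4, averaged 0.09, 0.063 and 0.04 TPM. In the Slc6 set Slc6a6 alone of 11 was, followed by Slc6a19 and Slc6a17 at means of 0.02 and 0.013 TPM. Of the other light chains Slc7a9, Slc7a10 and Slc7a12 had 0 counts and Slc7a13 was at 0.02 TPM. At the lysosome and among proton-coupled carriers 8 of 10 were detected, with Mfsd12 at 30.7 ± 4.04 TPM and Slc15a4, which also anchors endosomal TLR signalling, at 7.98 ± 2.04 TPM, while Slc36a2 had 1 count in all. Of the mitochondrial carriers 5 of 9 were detected, led by Slc25a44 at 6.02 ± 0.670, Slc25a22 at 4.97 ± 0.427 and Slc25a12 at 4.42 ± 0.320 TPM (SD, n = 3 each), with Slc25a2 lowest at 0.01 TPM.

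**Figure D5:**
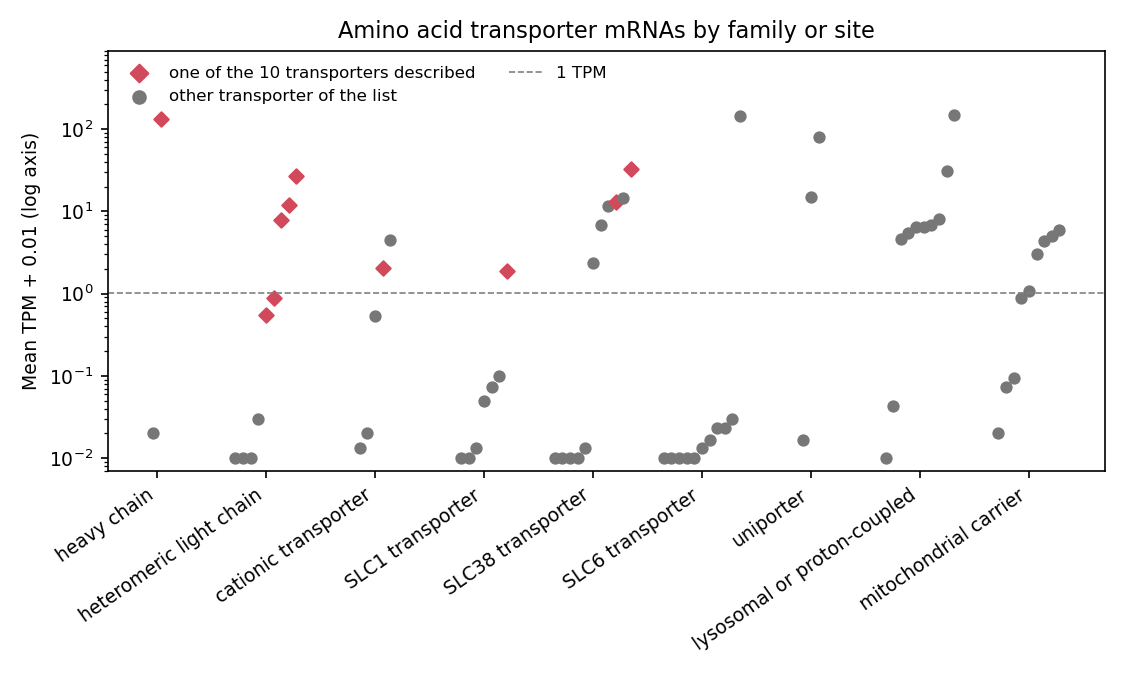
Mean TPM over 3 libraries plus 0.01, on a log axis, for 67 amino acid transporter genes by family or site, with the 10 carriers described as diamonds and the dashed line at 1 TPM. Slc6a6 and Slc15a3 top the plot and most Slc1 and Slc6 genes sit near the floor.

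Genes that sense or use the transported amino acids were counted in the same way, beside the 37.6% detected among all nuclear-encoded protein-coding genes. These lists were chosen for known roles with earlier results in view, so their shares are a description. Of 21 genes of amino acid sensing, 14 (66.7%) were detected, led by the Rag GTPase Rragc at 47.6 ± 6.62 TPM and the Ragulator subunits Lamtor1 at 43.2 ± 1.22 and Lamtor3 at 30.7 ± 2.06 TPM, with Rragb lowest at 0.12 TPM. The leucine sensor Sesn2 was at 1.10, 0.74 and 0.64 TPM. Of 9 glutamine and glutamate enzymes 6 were detected, led by glutamine synthetase (Glul) at 36.5 ± 2.23 and Glud1 at 33.5 ± 1.31 TPM, with Gls2 lowest at 0.10 TPM. Of 8 genes of cystine use and glutathione 5 were detected, led by Gsr at 11.6 ± 1.33, Gclm at 6.50 ± 1.59 and Ggct at 3.58 ± 0.378 TPM (SD, n = 3 each). Cth and Cbs, which make cysteine from methionine, were at no more than 0.04 and 0.01 TPM in any library, and Chac1 had 2 counts in all. Of 7 transcription regulators 6 were detected, with Trib3 lowest at 0.29, 0.28 and 0.19 TPM, and Ddit3 at 20.60, 15.28 and 13.77 TPM.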

How the data were processed

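Per the labels, 3 libraries of 1 group were made from 1 µg of RNA with fragments of 250 to 400 bp. Per the file headers the authors deposited expected counts, TPM and FPKM per gene in RSEM layout, with a posterior mean TPM and credibility bounds of TPM, read here as a signal, and transcript tables with expected counts, TPM and the percent of a gene's TPM per transcript. They also deposited estimated counts and TPM per transcript in kallisto layout, summed here per gene and called the second quantification. The deposited listing names mm10 and GENCODE M21. For the aligner, tool versions and strandedness, the entry is not given in the sources used here. TPM keeps no depth, and short abundant RNAs take a large share of it.

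The genes, lists and tests were chosen with earlier results of these data known. Named genes are the 10 carriers, and the 3 highest and the lowest other genes of each list, with genes tied at 0 given together or as counts. A gene that this rule names is not reported here. Genes overlapping a carrier were also named where they had exon overlap or span the carrier. Sesn2, Gclc, Cth and Cbs fall outside this rule and were named after their values were seen. Scripts ran in Python 3.11.15 with pandas 2.3.3. The dispersion test, Pearson's chi-square against a Poisson model, used edgeR 4.0.16 (TMM) on expected counts rounded to whole numbers, for genes with a mean of at least 10 counts, and was tested on simulated data. DESeq2 1.42.0 gave alternative size factors. edgeR's quasi-likelihood test needs a second group and was not run. Other alternatives were leaving out each replicate, FPKM, rescaling, the second quantification, other thresholds and, added after seeing the data, posterior mean TPM, TMM over nuclear-encoded protein-coding genes and the limit of 1.5 times between libraries.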

Additional observations from a re-analysis of the deposited data

How the results depend on the processing

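With each replicate left out in turn, the median of the 10 carrier means ran from 9.13 to 10.8 TPM, the Slc7a8 share of light chain mRNA from 54.8% to 57.2% and the ratio of Slc3a2 to its light chains from 2.59 to 2.96, with 8 carriers detected and 7 varying beyond counting error each time. Without replicate 2 Slc38a1 was no longer called and Slc1a5 was. The median of the means, 9.96 TPM in the report, was 3.93 TPM in the second quantification, 44.8 after rescaling to nuclear-encoded protein-coding genes and 18.9 in FPKM. The last 2 are other scales, and the cause of the first difference was not tested. The Slc7a8 share was 52.0% in the second quantification. A biological coefficient of variation above the median of all genes was found for 3 carriers, Slc7a5, Slc7a6 and Slc38a2. A highest library over 1.5 times the lowest on deposited TPM was also found for 3, Slc38a2, Slc7a6 and Slc7a11. These are other measures and not subsets of the 7, since the dispersion test called neither Slc7a5 nor Slc7a6. The number of carriers detected was 6 in the second quantification and at 5 TPM, and 10 at 0.5 TPM, in FPKM, after rescaling and at 10 counts. Library totals with no further scaling called 8 carriers. On posterior mean TPM the difference Slc7a6 minus Slc7a5 reversed to -0.33 and 6 neighbouring pairs kept their order in place of 7. The pairs without an order also changed sign: Slc38a2 minus Slc7a7 was -0.15 without replicate 1 and -0.20 in the second quantification, and Slc7a1 minus Slc1a5 was -0.0055 without replicate 3 and -0.0021 on posterior mean TPM. The cause was not tested. Depth limits Slc7a5, Slc7a6 and Slc1a5 most, with 103, 168 and 307 counts in replicate 1. No paired analysis was possible because the labels give 1 group only.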
